A study of Mus musculus with 35 samples.

Results

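Livers of 6 mice that had received the liver carcinogen diethylnitrosamine (DEN) and then a control antisense oligonucleotide (ASO) were compared with livers of 5 untreated mice harvested on the same day, day 260 after birth. The 11 mice were taken by the names of their columns in a table of raw counts that holds 21 mice in all. DEN was injected once, at 25 mg/kg on day 14, and the control ASO, a short synthetic nucleic acid that serves as the comparison for one against Smyd3, was injected at 50 mg/kg 2 times a week after day 133. The untreated mice received neither agent, so an effect of DEN and an effect of the ASO injections cannot be told apart here. All mice were C57Bl6, and the labels do not give their sex: Xist had 0 counts in all 11, and each of the Y-linked genes Kdm5d, Uty, Ddx3y and Eif2s3y had a count in all 11.

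Both groups came from homogenised liver pieces. The labels call the DEN samples tumours of hepatocellular carcinoma and the untreated samples normal liver, but do not say how much of a piece was tumour. Each control-ASO column adds up 2 sequencing libraries of 1 mouse, and each untreated column holds 1 library, so the number of libraries also differs with the group. In bulk tissue, fewer cells of a type and less RNA per cell cannot be told apart. The p-values measure the spread between these mice.

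As background, DEN becomes reactive only after oxidation by cytochromes of the hepatocyte, chiefly the pericentral enzyme Cyp2e1, and the products damage DNA. A single dose to infant mice leaves altered cells that grow into tumours over months, and such tumours often carry activating mutations of the Ras-MAPK pathway. Liver tumours are known to express genes of the fetal liver again and to lose enzymes of the mature hepatocyte. These enzymes are laid out in zones along the liver lobule, and many differ between male and female mice under the control of growth hormone.

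Transcripts were read at their 3' end, so that 1 read stands for 1 transcript end, and levels are in CPM, reads relative to the library's size after TMM scaling over all 21 mice. Totals ran from 10186780 to 13116012 counts in untreated and from 6789715 to 13805881 in control-ASO mice. The top 10 genes took up 24.9 to 32.2% of the reads of untreated mice and 17.3 to 22.9% of those of control-ASO mice, and the TMM factors were 0.579 to 0.791 and 1.03 to 1.30. The scaling therefore sets the zero point: scaled by library totals instead, the median log2 change of all genes moved from 0.06 to 0.90, and the share of called genes that were higher moved from 51.6 to 93.6%. Directions below are relative to the TMM scaling, and counts under library totals are given beside the gene lists described that had more falls than rises. Under library totals 10036 of the 15297 genes tested were higher and 687 lower, the background for those counts.

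Of 15297 genes tested, 3620 were higher in control-ASO livers (23.7% of genes), 3398 were lower (22.2%) and 8279 did not pass an adjusted p of 0.05 with edgeR. With a change of at least 2-fold added, 1906 were higher (12.5%) and 1417 lower (9.26%). In 2242 genes (14.7%) each control-ASO mouse lay above each untreated mouse, and in 1956 (12.8%) each lay below. These shares are the background against which the counts of each gene group are read. The gene lists were written with earlier results of these data known, so their counts are descriptions and not tests. Protein-coding genes were called evenly, 22.9% higher and 22.7% lower. Of the rows of unconfirmed transcripts 61.9% were higher, of small nuclear RNA genes 56.4% and of small nucleolar RNA genes 49.7%. Whether reads at these rows come from those RNAs or from other transcripts that overlap them was not tested.

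**Figure D1:**
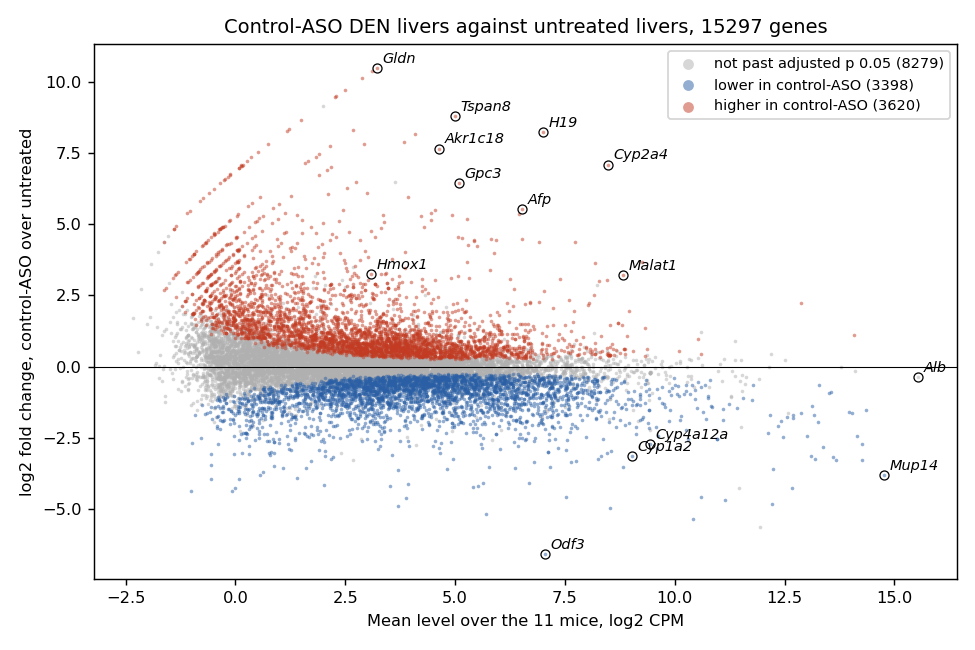
Each point is 1 of 15297 genes, with its mean level over the 11 mice (log2 CPM) on the horizontal axis and its log2 fold change of control-ASO over untreated livers on the vertical axis; red and blue mark genes past an adjusted p of 0.05. Rises reached larger values than falls, from Gldn (10.49) to Odf3 (-6.61), and the upper straight rows are genes with few or 0 counts in untreated mice.

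Akr1c18, a reductase that inactivates progesterone (chromosome 13, minus strand, 4132615 to 4150654 in mm10), was almost silent in untreated livers. Its level was 0.532, 0.234, 0, 0 and 0.263 CPM in untreated mice 1 to 5, and ran from 32.7 to 79.9 CPM with a median of 45.7 in control-ASO mice. The groups were far apart, by a log2 change of 7.67 (SE 0.45, adjusted p = 1.92e-07). This fold rests on 9 counts in untreated mice, and it was 8.38 without untreated mouse 1. Beside these, Akr1c18 ran from 0 to 0.642 CPM in the 4 DEN livers taken at day 133, before any ASO, and from 0.555 to 11.3 CPM in the 6 DEN livers given the Smyd3-ASO.

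Afp encodes alpha-fetoprotein, the main serum protein of the fetal liver, and lies on chromosome 5 next to the albumin gene (90490737 to 90508907). Untreated mice had 3.19, 5.26, 5.35, 2.98 and 2.63 CPM, and control-ASO mice 94.3 to 341 CPM with a median of 169. Each control-ASO mouse was above each untreated mouse (log2 5.53, SE 0.37, adjusted p = 5.15e-07). At day 133 the DEN livers had 0.205 to 2.45 CPM, below each untreated mouse.

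H19, an imprinted noncoding RNA that is abundant in the fetus (chromosome 7, 142575529 to 142578143), stood at 2.87, 0.584, 0, 0.283 and 0 CPM in untreated mice and at 66.8 to 589 CPM (median 219) in control-ASO mice (log2 8.24, SE 1.07, adjusted p = 2.03e-04). Untreated mouse 1 was the highest of its group, and the change was 10.01 without it. Cyp4a12a, a fatty acid hydroxylase of the male liver (chromosome 4, 115299046 to 115332815), went the other way. Its untreated levels were 1354, 1883, 1335, 1747 and 717 CPM, and the control-ASO mice ran from 66.3 to 414 CPM with a median of 210 (log2 -2.74, SE 0.43, adjusted p = 3.35e-04). All control-ASO mice lay below all untreated mice, and DEN livers at day 133 lay between the group medians, at 526 to 645 CPM. Reads of Cyp4a12a and its near copy Cyp4a12b may be shared, and the 2 genes together fell from 1826 ± 713 CPM (SD, n = 5) to 234 ± 139 CPM (n = 6).

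The promoters of 2 of these genes are shown because in both genes each control-ASO mouse lay far above each untreated mouse. They are the 250 bases before the start given by RefSeq (GRCm38.p6), at chr5:90490464-90490713 on the plus strand for Afp and chr13:4150647-4150896 on the minus strand for Akr1c18. Capitals mark GTTAAT, one arm of the palindromic site of the liver factor HNF1 (searched on both strands), and TATAAA (searched on the strand of the gene).
Afp: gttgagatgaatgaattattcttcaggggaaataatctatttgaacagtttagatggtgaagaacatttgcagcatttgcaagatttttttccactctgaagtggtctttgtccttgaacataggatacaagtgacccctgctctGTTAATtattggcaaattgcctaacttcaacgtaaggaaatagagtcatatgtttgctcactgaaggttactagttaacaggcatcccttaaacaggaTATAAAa
Akr1c18: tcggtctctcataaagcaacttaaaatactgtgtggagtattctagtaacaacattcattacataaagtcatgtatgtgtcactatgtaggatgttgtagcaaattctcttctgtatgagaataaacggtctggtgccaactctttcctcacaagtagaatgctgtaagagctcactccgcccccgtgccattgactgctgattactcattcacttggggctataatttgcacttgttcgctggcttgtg
The Afp window held GTTAAT starting 105 bases before the RefSeq start and TATAAA starting 7 bases before it, and the Akr1c18 window held neither. For Afp this RefSeq start lies upstream of the gene start given above, so both distances are larger when taken from the latter. Of the 15297 genes tested, 10177 had a promoter entry, and 4.16% of those windows held GTTAAT and 4.47% TATAAA. Among genes at least 2-fold higher the shares were 3.49 and 6.22% (1061 windows), and among those at least 2-fold lower 5.46 and 5.12% (879 windows). TGACTCA, the site of the AP-1 factors Fos and Jun (both strands), stood in 3.2% of all windows, 4.71% of the higher set and 3.3% of the lower set, and CAAAGTCCA, a site of HNF4 (both strands), in 0.472, 0.566 and 1.37%. TTCNNNGAA, the site of STAT factors, stood in 6.05, 5.94 and 5.69%. These are matches of letters, not bound sites.

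Oncofetal and liver tumour markers were higher almost throughout: 22 of 26 measured rose, against 23.7% of all genes, 1 fell and 3 did not pass. The median log2 change of the list was 3.39, against 0.06 over all genes. Gpc3 (named after its values were seen), a fetal proteoglycan of the cell surface that pathologists use to mark liver cancer, stood at 0.638, 1.05, 1.22, 0.283 and 0.526 CPM in untreated mice. In control-ASO mice it ran from 35.1 to 147 CPM with a median of 54.5, and control-ASO mouse 6 was well above the rest (log2 6.45, SE 0.52, adjusted p = 3.33e-06). Prom1, a membrane protein known as a stem cell marker, rose from 0.993 ± 0.428 CPM (SD, n = 5) to 11.9 ± 4.24 CPM (n = 6; log2 3.53), with no overlap between the groups.

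The tetraspanin Tspan8, a membrane protein raised in several carcinomas, was one of the steepest rises with any reads in untreated mice. It had 0.213, 0, 0.153, 0 and 0.263 CPM in untreated mice against 37.3 to 107 CPM (median 53.2) in control-ASO mice (log2 8.81, SE 0.54, adjusted p = 3.75e-07). Each untreated level was under that of 3 counts (0.319 to 0.458 CPM), so the fold rests on few counts. Igf2, the fetal insulin-like growth factor encoded next to H19, went from 0.412 ± 0.341 to 4.09 ± 2.91 CPM, a log2 change of 3.25 (SE 0.65, adjusted p = 0.00127), and Meg3, a noncoding RNA of chromosome 12 (named after its values were seen), from 8.25 ± 8.73 to 73.1 ± 49.9 CPM (log2 3.10). Without untreated mouse 1, which had 21.8 CPM, the change of Meg3 was 3.88.

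Dlk1, a fetal inhibitor of Notch signalling from the same imprinted region as Meg3, had 0 counts in all untreated mice. In control-ASO mice it ran from 0.964 to 30.5 CPM with a median of 6.55, and mouse 5 was far above the others. Set against 3 counts over the untreated group it was at least 112-fold higher. Its call (adjusted p = 0.0227) ended without control-ASO mouse 1 (adjusted p = 0.0503) and with voom (0.078), and its fitted log2 change moved from 9.52 to 8.68 without mouse 5. Igf2bp3, an RNA-binding protein of the fetus and of many tumours, was the member that fell, from 3.01 ± 2.00 to 0.707 ± 0.846 CPM (log2 -2.07, adjusted p = 0.0333). Its groups overlapped, and the call ended without untreated mice 2 or 4 or control-ASO mice 1, 3, 4 or 5 (adjusted p up to 0.095), while without control-ASO mouse 6 the change was -2.66. The call of Igf2bp3 was also lost with library totals (adjusted p = 0.164), with no filter on low counts (0.0985) and with all libraries thinned to the lowest total (0.17).

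**Figure D2:**
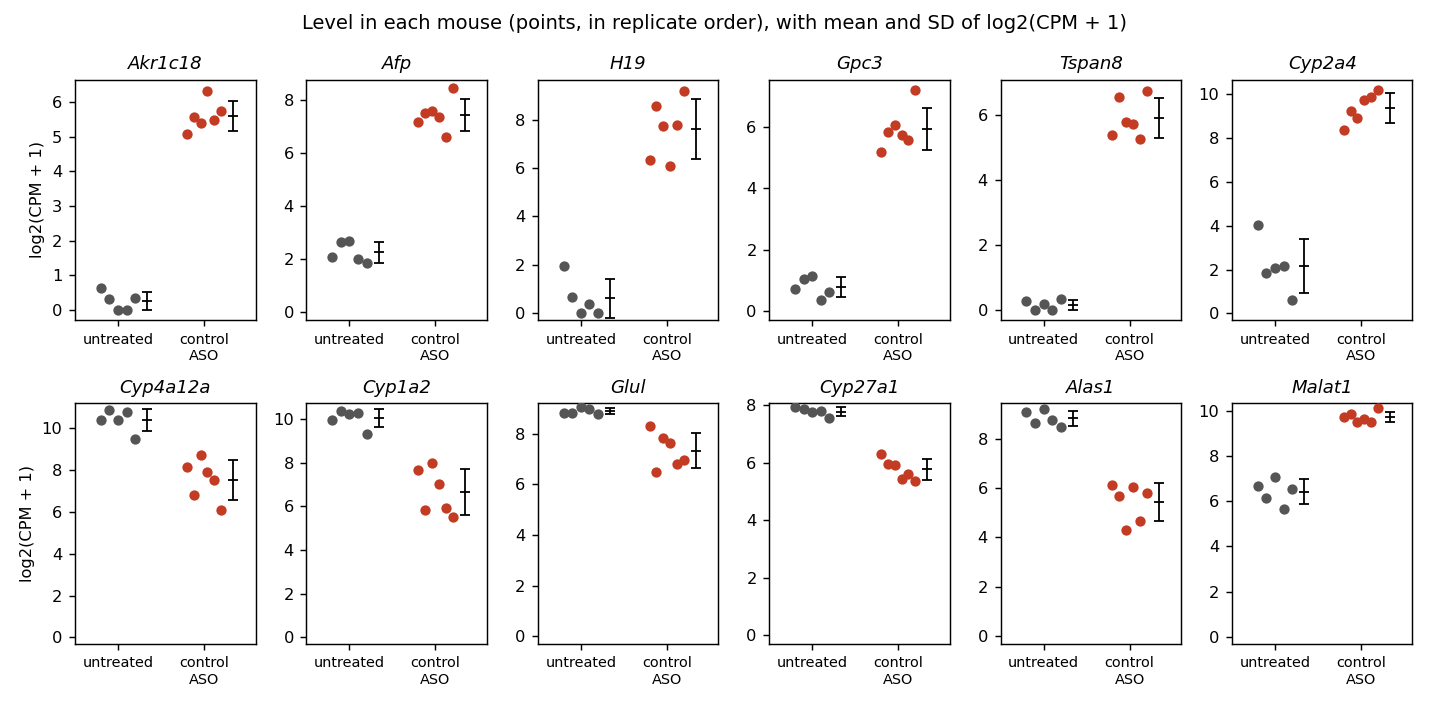
Levels of 12 genes as log2(CPM + 1) in the 5 untreated (grey) and 6 control-ASO mice (red), with the mean and SD beside the points. In each of the 12 the groups were separate, with rises in the upper row and falls in the lower row except Malat1, which rose; untreated mouse 1 was the highest of its group for H19 and Cyp2a4.

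Among the 12 steepest rises of well-measured genes, several had 0 counts in all 5 untreated mice, so that only a lower bound can be given. Against 3 counts over the untreated group, Gldn (gliomedin, a secreted protein of nerve nodes) was at least 229-fold higher, Erich4 at least 223-fold, Prom2 (a relative of Prom1) at least 184-fold, Shc2 (a signalling adaptor) at least 145-fold and Kif5c (a motor protein of neurons) at least 121-fold. Their control-ASO levels ran from 2.91 to 47.7 CPM for Gldn, 8.56 to 24.9 for Erich4, 5.25 to 31.7 for Prom2, 4.63 to 16.7 for Shc2 and 4.35 to 13.8 for Kif5c. In all, 7 named genes had 0 counts in the untreated mice and at least 1 CPM in each control-ASO mouse, the other two being Csn3 and Sult4a1 (named after their values were seen). No named gene had 0 counts in the control-ASO mice and at least 1 CPM in each untreated mouse.

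Other large rises rested on few untreated counts. Wfdc15b, a secreted protease inhibitor, ran from 8.42 to 59.9 CPM (median 28.8) against 0 to 0.319 CPM, Bex1 from 6.45 to 54.2 CPM (median 22.6) against 0 to 0.283 CPM, and Tceal5 from 4.70 to 24.2 CPM (median 14.3) against 0 to 0.305 CPM. Their log2 changes were 8.18, 7.90 and 7.83. Single untreated mice moved them, to 9.48 for Wfdc15b without untreated mouse 1, 8.54 for Bex1 without mouse 4 and 10.24 for Tceal5 without mouse 3. The noncoding Nctc1, which lies near H19, had 57.2 CPM in control-ASO mouse 3 and a median of 4.35. The change of Nctc1 was 8.31, and 6.51 without that mouse, and its call ended without untreated mouse 5 (adjusted p = 0.0727) and with voom (0.0708).

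The 12 largest falls held 5 Mup genes, described below, and several genes in which 1 mouse weighed heavily. Odf3, a protein of the sperm tail, had 463, 231, 675, 4.53 and 189 CPM in untreated mice and 1.26 to 8.21 CPM (median 2.26) in control-ASO mice (log2 -6.61, SE 1.10, adjusted p = 9.68e-04). Untreated mouse 4 lay within the control-ASO range and the other 4 far above it. Ugt2b38, which joins glucuronic acid to steroids and drugs, fell without overlap, from 8.99 ± 3.97 to 0.501 ± 0.154 CPM (log2 -4.17, SE 0.39). Cyp4a12b fell by 4.58 on the log2 scale, and by 5.23 without control-ASO mouse 3.

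Tph1, which starts serotonin synthesis, Orm2, an acute phase carrier, and Saal1, a neighbour of the serum amyloid genes, were each at their highest in untreated mouse 5. Their levels in that mouse were 568, 3830 and 16555 CPM, against at most 22.3, 197 and 470 CPM in the other untreated mice. Their log2 changes of -5.18, -4.98 and -4.59 became -1.47, -1.91 and -0.86 without it, and none was then called (adjusted p = 0.255, 0.122 and 0.475). Leaving out control-ASO mouse 1 took them to -6.70, -5.84 and -6.02. The calls of Tph1 and Saal1 also ended without any 1 of control-ASO mice 2 to 6 (adjusted p up to 0.0634 and 0.0832), and that of Orm2 without mouse 6 (0.0514). The calls of Tph1 (adjusted p = 0.056) and Saal1 (0.0778) ended with no filter as well, that of Tph1 with voom (0.14) and that of Saal1 with library totals (0.0515). Hamp2, a hepcidin copy, fell by 4.10, and by 2.92 with no call (adjusted p = 0.0669) without untreated mouse 1; without control-ASO mouse 3 its fall was 5.64, and with mouse 1, 5 or 6 of that group left out it was not called (adjusted p up to 0.0521).

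Major urinary proteins, pheromone carriers that the male liver secretes in bulk, were lower in 20 of 22 genes and higher in 0. Summed over the family they stood at 148200, 366600, 649400, 285800 and 307700 CPM in untreated mice and at 14070 to 113300 CPM in control-ASO mice, so the groups did not overlap. Mup14 fell from 60920 ± 32640 CPM (SD, n = 5) to 4413 ± 3691 CPM, a log2 change of -3.82 (SE 0.63, adjusted p = 3.29e-04). Untreated mouse 3 held the most Mup RNA, and without it the changes of Mup16, Mup17, Mup18 and Mup11 moved from -3.61, -4.84, -4.71 and -4.26 to -3.0, -3.05, -3.41 and -2.97. The calls of Mup17 (adjusted p = 0.0686) and Mup11 (0.101) then ended, and that of Mup11 ended also without untreated mouse 5 or any 1 of control-ASO mice 2 to 6 (adjusted p up to 0.0696), and with no filter (0.0705). Without control-ASO mouse 1 the changes of Mup17, Mup18 and Mup11 were -5.97, -5.57 and -6.26. The Mup genes are near copies of each other, and reads may be split among them.

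Sex-biased genes moved in opposite ways. Of 18 measured female-biased genes 10 rose and 0 fell (median log2 2.62), and of 27 male-biased genes 0 rose and 18 fell (median -1.94; 0 and 13 with library totals), against 23.7 and 22.2% of all genes. Cyp2a4, a testosterone hydroxylase of the female liver, had 15.5, 2.57, 3.21, 3.54 and 0.526 CPM in untreated mice and 325 to 1155 CPM (median 725) in control-ASO mice. Its log2 change was 7.10 (SE 0.83, adjusted p = 7.83e-05), and 8.17 without untreated mouse 1. Reads of Cyp2a4 and other Cyp2a genes may be shared. The 4 Cyp2a genes together went from 447 ± 121 to 1100 ± 303 CPM, and 1 of them was called higher. Cyp3a41b, a female cytochrome with a near copy, rose by 5.52 (6.54 without the same mouse), and Rtn4, a reticulon of the endoplasmic reticulum, from 29.0 ± 7.29 to 105 ± 31.0 CPM (log2 1.81).

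On the male side, C8b, a chain of the complement pore, stood at 204, 256, 280, 216 and 234 CPM in untreated mice and at 39.8 to 90.1 CPM (median 55.2) in control-ASO mice. It fell by 2.04 on the log2 scale (SE 0.18, adjusted p = 9.87e-07), as did the peroxisomal hydrolase Nudt7 (from 869 ± 102 to 216 ± 78.9 CPM). Ugt2b1, a glucuronosyltransferase, fell from 735 ± 357 to 91.4 ± 43.4 CPM (log2 -3.05). The growth hormone receptor Ghr fell from 527 ± 98.8 to 153 ± 43.0 CPM (log2 -1.81, SE 0.20). Cish, a feedback inhibitor that growth hormone induces through STAT5, fell from 40.0 ± 8.45 to 13.6 ± 6.19 CPM (log2 -1.59). Of 13 SOCS and STAT genes, however, 1 rose, 3 fell and 9 did not pass (median log2 -0.09). With library totals 7 of them were higher and 0 lower. The growth hormone axis was not read as a list, and its activity was not tested. The call of Cish was lost with library totals (log2 -0.74, adjusted p = 0.113).

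Pericentral genes, expressed by the hepatocytes around the central vein under Wnt signals, were lower: 15 of 20 fell, 0 rose and 5 did not pass, with a median log2 change of -1.52 (0 and 8 called higher and lower with library totals). Cyp1a2, which oxidises caffeine and aromatic amines, had 1011, 1347, 1227, 1259 and 651 CPM in untreated and 45.5 to 258 CPM (median 95.8) in control-ASO mice (log2 -3.16, SE 0.49, adjusted p = 3.32e-04). Cyp2e1, the cytochrome that activates DEN, had 4711, 3750, 4784, 3823 and 2526 CPM against 504 to 1978 CPM with a median of 1019 (log2 -1.87, SE 0.33, adjusted p = 4.52e-04). In both genes untreated mouse 5 was the lowest of its group and still above each control-ASO mouse.

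Glul, glutamine synthetase of the last cells before the central vein, had 453, 453, 534, 500 and 438 CPM in untreated mice and 87.8 to 311 CPM (median 162) in control-ASO mice (log2 -1.47, SE 0.28). Cyp27a1, which hydroxylates sterols on the way to bile acids, fell from 220 ± 21.9 to 54.8 ± 14.1 CPM, a log2 change of -2.04 (SE 0.16, adjusted p = 4.70e-07). Glul ran from 448 to 606 CPM and Cyp27a1 from 163 to 187 CPM in the DEN livers at day 133. The promoter of Cyp1a2 is shown as that of the steepest fall in this group (chr9:57683656-57683905, minus strand, GRCm38.p6), with TATAAA in capitals, which starts 29 bases before the RefSeq start; GTTAAT was not in the window.
Cyp1a2: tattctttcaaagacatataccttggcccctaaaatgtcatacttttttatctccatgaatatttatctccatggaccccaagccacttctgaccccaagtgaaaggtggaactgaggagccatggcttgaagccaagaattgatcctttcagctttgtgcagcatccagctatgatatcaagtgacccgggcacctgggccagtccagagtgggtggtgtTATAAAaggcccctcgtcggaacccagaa

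Of 12 targets of Wnt signalling 5 fell, 1 rose and 6 did not pass (median log2 -0.69; 3 higher and 2 lower with library totals). Notum, a secreted brake on Wnt, fell from 15.9 ± 2.12 to 7.71 ± 2.71 CPM (log2 -1.08), Nkd1, another inhibitor, from 2.60 ± 0.630 to 0.957 ± 0.431 CPM (log2 -1.49), and the ammonium transporter Rhbg from 18.4 ± 5.59 to 6.65 ± 2.42 CPM (log2 -1.50). The calls of Notum and Nkd1 were lost with library totals (adjusted p = 0.273 and 0.0985). Ctnnb1, which encodes beta-catenin itself, rose from 206 ± 13.1 to 279 ± 19.0 CPM (log2 0.41, SE 0.11).

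The periportal list was mixed, with 8 of 20 lower and 4 higher (median log2 -0.46; 4 lower and 7 higher with library totals). Uroc1, a histidine-degrading enzyme, fell from 203 ± 26.6 to 86.5 ± 13.7 CPM (log2 -1.26). Against these, the lipid droplet dehydrogenase Hsd17b13 rose from 97.8 ± 15.0 to 446 ± 127 CPM, a log2 change of 2.15 (SE 0.20, adjusted p = 1.58e-06), the mitochondrial aldehyde dehydrogenase Aldh1b1 from 88.9 ± 13.3 to 352 ± 111 CPM (log2 1.95), and Apoa4, an apolipoprotein, from 43.0 ± 9.13 to 554 ± 307 CPM (log2 3.64, SE 0.42). None of the 3 overlapped between the groups.

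**Figure D3:**
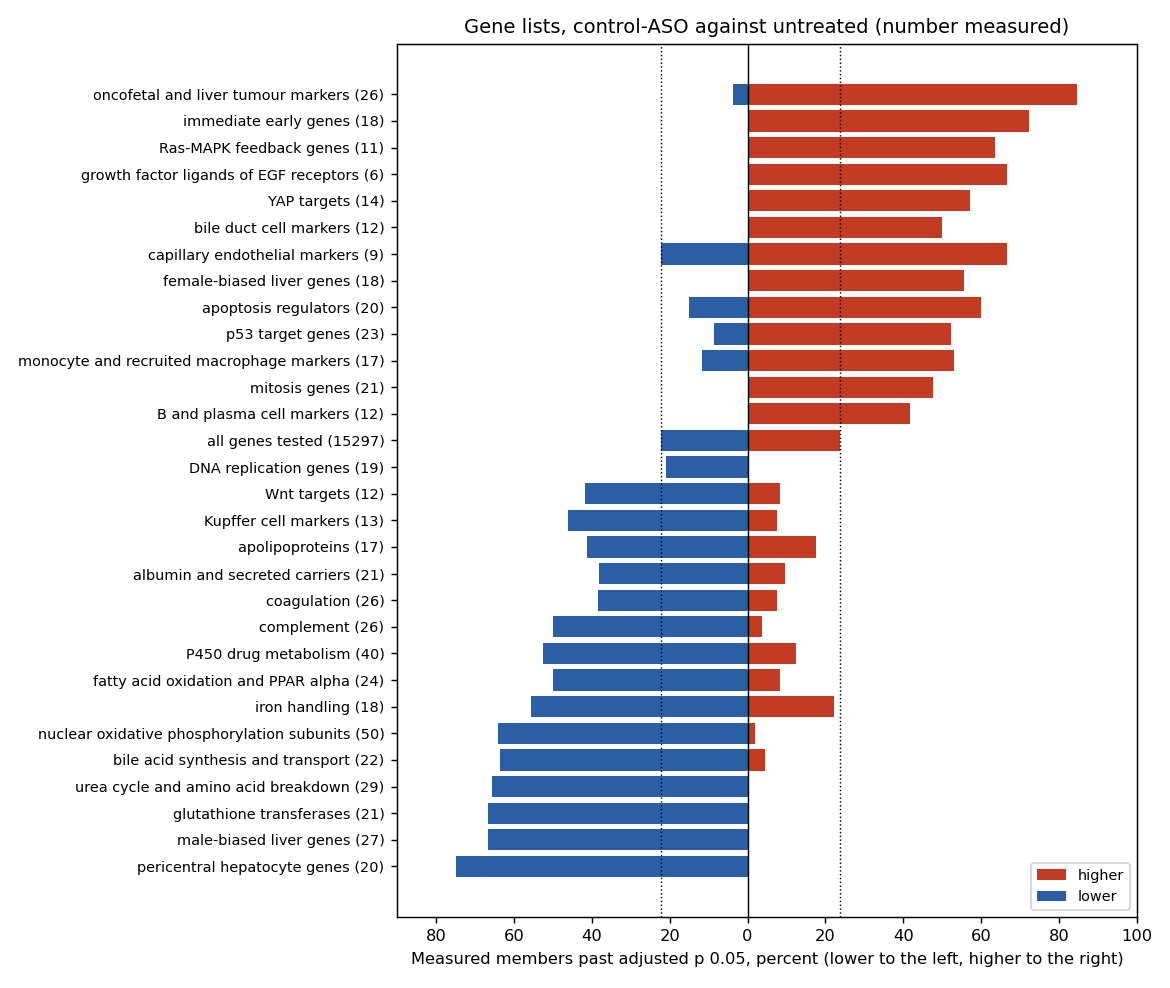
Percent of the measured members of each list past an adjusted p of 0.05, higher to the right (red) and lower to the left (blue), with the number measured in brackets and the share over all 15297 genes as dotted lines (23.7 and 22.2%). With TMM scaling the oncofetal, immediate early and Ras-MAPK feedback lists exceed the line for higher genes, and the pericentral and male-biased lists that for lower genes.

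Ligands of the EGF receptor family, which drive hepatocyte growth, rose in 4 of 6 measured and fell in 0 (median log2 1.59). Tgfa had 3.62, 6.78, 7.03, 5.53 and 4.60 CPM in untreated and 11.9 to 18.5 CPM (median 13.4) in control-ASO mice, with no overlap (log2 1.36, SE 0.19, adjusted p = 6.82e-05). Nrg1, which binds the relatives of the EGF receptor, had 2 counts in all untreated mice and 0.772 to 6.96 CPM in control-ASO mice, a ratio of 67.1 with a counting interval whose lower end is 18.4. Its fitted change moved from 5.71 to 8.11 without untreated mouse 4. Hbegf rose by 2.67, and by 3.92 without untreated mouse 5, and Egf by 1.82, both with overlap between the groups. The call of Egf was lost with voom (adjusted p = 0.0849).

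Of 16 growth factor receptors 4 rose, 2 fell and 10 did not pass (median log2 0.15). The receptor Egfr fell from 354 ± 86.0 to 192 ± 68.2 CPM (log2 -0.93, adjusted p = 0.00457), with overlap. With library totals the change of Egfr was -0.04 (adjusted p = 0.872), and with all 21 mice in the fit its call was lost too (0.0602). Fgfr1, a receptor little used by the adult hepatocyte, rose from 1.52 ± 0.492 to 5.23 ± 2.02 CPM (log2 1.75, SE 0.31). Among 9 insulin-like growth factor genes 3 rose and 4 fell (3 and 2 with library totals). Igf1, the circulating hormone made by the liver, stood at 1097, 1113, 845, 1120 and 982 CPM in untreated mice and at 331 to 613 CPM (median 423) in control-ASO mice (log2 -1.29, SE 0.17). Its carrier subunit Igfals and the binding protein Igfbp7 fell by 1.21 and 1.48, the first of these a call lost with library totals (adjusted p = 0.0704). Igfbp1, a binding protein induced in fasting and injury, rose from 70.0 ± 53.3 to 574 ± 186 CPM (log2 3.00).

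Genes that Ras-MAPK signalling switches on as its own brakes rose in 7 of 11 measured and fell in 0 (median log2 1.10). Dusp6, the phosphatase of ERK, had 27.0, 22.6, 29.6, 21.5 and 28.8 CPM in untreated mice and 88.2 to 188 CPM (median 114) in control-ASO mice. The untreated mice were tightly grouped, and the lowest control-ASO mouse stood clear of them (log2 2.25, SE 0.21, adjusted p = 1.89e-06). Dusp5 rose from 0.367 ± 0.294 to 8.96 ± 5.12 CPM (log2 4.56, SE 0.55), the Ras inhibitor Spred1 from 5.37 ± 0.611 to 11.8 ± 2.15 CPM (log2 1.10) and the ETS factor Etv5 from 2.15 ± 0.632 to 6.87 ± 1.52 CPM (log2 1.63).

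Immediate early genes, the first to be transcribed after a stimulus, rose in 13 of 18 and fell in 0 (median log2 1.94). Klf6 had 2.55, 1.87, 4.43, 3.40 and 3.42 CPM in untreated and 17.9 to 31.6 CPM (median 24.4) in control-ASO mice (log2 2.96, SE 0.21, adjusted p = 2.81e-07). Junb, an AP-1 subunit, rose from 5.92 ± 2.20 to 36.5 ± 7.69 CPM (log2 2.58), Ier2 by 1.74 and Ier3 by 2.51. None of these 4 overlapped. Fos (named after its values were seen) had 0.106 to 0.283 CPM in untreated mice, each under the level of 3 counts. Control-ASO mice had 4.20 to 57.0 CPM (median 5.53). Mouse 1 was the highest, and without it the change of Fos was 4.98 in place of 6.11. Such genes also respond within minutes to handling and tissue collection, and the time from death to freezing is not in the labels.
The promoter of Fos is shown because its well-known cAMP element lies within the window (chr12:85473640-85473889, plus strand, GRCm38.p6), with TGACG, the core of that element, and TATAAA in capitals, starting 129 and 66 bases and 33 bases before the RefSeq start.
Fos: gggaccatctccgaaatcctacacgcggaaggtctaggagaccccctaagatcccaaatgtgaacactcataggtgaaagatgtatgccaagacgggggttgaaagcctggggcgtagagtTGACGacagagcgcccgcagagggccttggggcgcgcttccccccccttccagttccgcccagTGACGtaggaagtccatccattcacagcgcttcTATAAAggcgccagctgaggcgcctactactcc
TGACG (both strands) stood in 26.5% of the 10177 windows, in 22.5% of those of the genes at least 2-fold higher and in 5 of 14 windows of the immediate early genes.

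Targets of YAP, the effector of the Hippo pathway that limits liver size, rose in 8 of 14 and fell in 0 (median log2 0.71). Crim1 rose from 2.37 ± 0.766 to 7.57 ± 1.34 CPM (log2 1.65), Amotl1 from 8.20 ± 1.57 to 17.4 ± 2.62 CPM (log2 1.04) and Amotl2 from 9.28 ± 2.71 to 16 ± 1.66 CPM (log2 0.76). Ccn1, a matrix protein, rose by 2.91, and by 2.14 without control-ASO mouse 1, which had 41.5 CPM against a median of 8.24.

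Targets of p53, the damage-sensing factor, rose in 12 of 23 and fell in 2 (median log2 0.77; 21 and 1 with library totals). Cdkn1a, which encodes the cell cycle inhibitor p21, had 1.92, 2.34, 0.458, 1.84 and 4.34 CPM in untreated and 5.19 to 20.2 CPM (median 12.9) in control-ASO mice (log2 2.47, SE 0.43, adjusted p = 6.10e-04). Tnfrsf10b, the death receptor of the ligand TRAIL, rose from 0.201 ± 0.0522 to 1.98 ± 0.511 CPM (log2 3.18), Bax from 2.17 ± 0.797 to 8.55 ± 1.33 CPM (log2 1.92), the growth suppressor Btg2 from 4.98 ± 2.11 to 42.5 ± 19.8 CPM (log2 3.05) and the kinase Plk2 by 1.33. None of these 5 overlapped between the groups. The kinase Plk3 and the membrane protein Perp fell, by 1.61 and 0.61, and Perp stood at 0.23 with library totals.

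Of 21 genes of mitosis 10 rose and 0 fell (median log2 0.92), and of 19 genes of DNA replication 0 rose and 4 fell (median -0.09; 8 and 1 with library totals). Plk1, the mitotic kinase, had 2.23, 2.69, 0.305, 2.98 and 3.02 CPM in untreated and 5.06 to 11.7 CPM (median 7.55) in control-ASO mice (log2 1.74, SE 0.36, adjusted p = 0.00139). Cenpa, the centromere histone, rose by 0.92, the mitotic cyclin Ccnb1 by 1.74 and the kinetochore protein Cenpf by 2.1. Whether the change of the mitosis genes differs from that of the replication genes was not tested.

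Tyms, which makes thymidylate for replication, fell from 262 ± 85.2 to 78.2 ± 28.8 CPM, a log2 change of -1.77 (SE 0.25, adjusted p = 9.44e-05). The clamp Pcna (log2 -0.50), the helicase subunit Mcm7 (-0.66) and the cyclin Ccne2 (-1.14) fell with adjusted p of 0.0371, 0.0389 and 0.0412, and with overlap. Their calls ended when single mice were left out: any of untreated 1, 3, 4 and 5 and control-ASO 1, 2, 4 and 5 for Pcna (adjusted p up to 0.111), untreated 1, 2 and 5 and control-ASO 2, 4 and 6 for Mcm7 (up to 0.156), and untreated 1 to 4 and control-ASO 2, 4 and 5 for Ccne2 (up to 0.0923). With library totals Pcna and Mcm7 stood at 0.37 and 0.19, and the call of Ccne2 was lost (adjusted p = 0.533). Upper quartile scaling and thinning to the lowest total ended the calls of all 3 (adjusted p = 0.0559 to 0.137), voom that of Pcna (0.056), and no filter and all 21 mice in the fit that of Ccne2 (0.0634 and 0.0719).

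Among 16 cyclin, CDK and CDK inhibitor genes 5 rose and 3 fell. The inhibitors of the Cdkn2 locus on chromosome 4 were nearly silent in untreated livers: Cdkn2b stood at 0.213, 0, 0, 0.142 and 0.263 CPM against 1.83 to 6.58 CPM (median 2.98), a log2 change of 4.69 (SE 0.59), and Cdkn2a (named after its values were seen) at 0 to 0.458 CPM against 1.12 to 7.25 CPM, a change of 4.36, or 5.05 without untreated mouse 3. The kinase Cdk4, which these proteins bind, fell from 13.3 ± 3.76 to 5.59 ± 0.315 CPM (log2 -1.28, a call lost with library totals, adjusted p = 0.0583). Rbl2, a pocket protein of resting cells, fell from 11.7 ± 3.12 to 2.27 ± 0.450 CPM (log2 -2.39, SE 0.21).

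Regulators of apoptosis rose in 12 of 20 and fell in 3 (median log2 0.69). Both kinds were among the risers: the death-promoting Bcl2l11, which encodes Bim, from 4.01 ± 0.672 to 13.7 ± 3.19 CPM (log2 1.73), and the protective Xiap from 40.7 ± 5.12 to 84.4 ± 13.4 CPM (log2 1.01) and Mcl1 from 46.2 ± 5.35 to 81.9 ± 9.13 CPM (log2 0.79). The caspase Casp8 fell by 1.37 and the death-promoting Bmf by 1.2. The call of Bmf was lost with library totals (adjusted p = 0.414) and without untreated mouse 4 (0.0514).

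Of 29 genes of the urea cycle and amino acid breakdown 19 fell and 0 rose (median log2 -0.67; 6 and 8 with library totals). Cbs, which takes homocysteine towards cysteine, had 612, 602, 356, 456 and 631 CPM in untreated and 124 to 172 CPM (median 153) in control-ASO mice (log2 -1.83, SE 0.17, adjusted p = 1.31e-06). The proline dehydrogenase Prodh fell from 79.4 ± 16.3 to 18.2 ± 5.78 CPM (log2 -2.16) and the serine dehydratase Sds from 168 ± 21.7 to 61.3 ± 20.7 CPM (log2 -1.50). All 3 were without overlap.

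In one-carbon metabolism 9 of 20 fell and 2 rose (median log2 -0.25; 2 and 10 with library totals). The 2 that rose make serine from an intermediate of glycolysis. Phgdh stood at 0.106, 0.117, 0, 0.142 and 0.263 CPM in untreated mice and at 1.36 to 9.13 CPM (median 3.04) in control-ASO mice (log2 4.75, SE 0.67, adjusted p = 7.09e-05). Each untreated level of Phgdh was under that of 3 counts. Psat1 rose by 2.91, with overlap, a call lost with voom (adjusted p = 0.0593). The mitochondrial serine hydroxymethyltransferase Shmt2 fell from 180 ± 41.4 to 48.9 ± 7.12 CPM (log2 -1.91, SE 0.15).

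Bile acid synthesis and transport fell in 14 of 22 genes and rose in 1 (median log2 -0.98; 6 and 5 with library totals). Akr1d1, the reductase that shapes the sterol ring, fell from 97.3 ± 17.3 to 17.4 ± 5.25 CPM, a log2 change of -2.52 (SE 0.20, adjusted p = 4.70e-07), the uptake carrier Slc10a1 from 257 ± 51.5 to 87.6 ± 28.8 CPM (log2 -1.59) and the export pump Abcb11 from 185 ± 10.6 to 95.8 ± 18.8 CPM (log2 -0.98, a call lost with library totals, adjusted p = 0.393). Abcc4, a pump of the blood side that is known to rise when bile flow is blocked, rose from 0.732 ± 0.507 to 2.28 ± 0.651 CPM (log2 1.55).

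Fatty acid oxidation fell in 12 of 24 and rose in 2 (median log2 -0.60; 4 and 8 with library totals). The thiolase Acaa2 fell from 845 ± 174 to 337 ± 55.6 CPM (log2 -1.36), the carnitine carrier Slc25a20 from 67.5 ± 8.34 to 25.7 ± 4.77 CPM (log2 -1.43) and Acadvl by 1.04, a call lost with library totals (adjusted p = 0.276). Acadm, the medium-chain dehydrogenase, rose from 82.5 ± 5.70 to 146 ± 18.1 CPM (log2 0.79). Fgf21, a hormone that the liver releases in fasting and mitochondrial stress, had 2 counts in all untreated mice and 0.370 to 17.8 CPM (median 5.45) in control-ASO mice, a ratio of 136 with a counting interval whose lower end is 37.4 (adjusted p = 6.46e-04).

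Nuclear genes of the respiratory chain fell in 32 of 50 and rose in 1 (median log2 -0.56). The counts called depended on the scaling, with 3 lower and 20 higher under library totals. The list's median lay below that of all genes in both, at -0.56 against 0.06 with TMM and 0.28 against 0.90 with library totals. The scaling shifts all genes by nearly the same amount, so this distance hardly depends on it and is no check on the calls. Uqcrq fell from 831 ± 53.9 to 367 ± 46.0 CPM (log2 -1.21), Atp5h from 352 ± 42.6 to 148 ± 28.5 CPM (-1.29), Ndufv1 from 374 ± 66.9 to 157 ± 34.4 CPM (-1.29) and Ndufa8 by 0.92, with the last call lost under library totals (adjusted p = 0.613). Cox7c rose from 949 ± 137 to 1434 ± 247 CPM (log2 0.56, adjusted p = 0.0144). Cytosolic ribosomal protein genes, read as a comparison, were split between 15 higher and 14 lower of 59 (median log2 0.07).

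Enzymes of drug metabolism fell in 21 of 40 cytochromes and rose in 5 (median log2 -0.86; 12 lower and 10 higher with library totals). The leukotriene hydroxylase Cyp4f14 fell from 239 ± 64.6 to 72.2 ± 11.4 CPM (log2 -1.76) and Cyp2f2 from 779 ± 145 to 217 ± 95.5 CPM (-1.88). The 5 that rose, Cyp2a4, Cyp2b13, Cyp3a16, Cyp3a41a and Cyp3a41b, are known as cytochromes of the female liver (3 of them were named after their values were seen). By family, the summed level of Cyp2c genes went from 4003 ± 544 to 1573 ± 360 CPM, that of Cyp3a from 2371 ± 644 to 934 ± 278 CPM and that of Cyp2a from 447 ± 121 to 1100 ± 303 CPM.

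Glucuronosyl and sulfotransferases fell in 11 of 22 and rose in 2 (median log2 -0.96; 7 lower and 9 higher with library totals). Ugt2b35 fell from 140 ± 36.2 to 48.0 ± 10.3 CPM and Ugt2b5 from 517 ± 168 to 181 ± 44.3 CPM. Sult2a2, a bile acid sulfotransferase, had 1 count in all untreated mice against 0.815 to 15.7 CPM (median 2.07), a ratio of 199 whose counting interval starts at 35.5. Its fitted change of 7.14 became 8.79 without untreated mouse 5 and 6.42 without control-ASO mouse 4, and its call was lost with voom (adjusted p = 0.0677).

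Glutathione transferases of the list fell in 14 of 21 and rose in 0 (median log2 -0.86, and 3 and 4 with library totals). Taken by gene name instead, 22 were tested, of which 14 fell and 1 rose. The riser was 1 of the 3 Gstp genes, near copies that may share reads, and the other 2 fell. Gsto1 fell from 84.2 ± 11.3 to 35.6 ± 5.99 CPM (log2 -1.28), Gstm2 from 90.6 ± 26.8 to 30.5 ± 9.24 CPM (-1.60), Mgst3 from 33.1 ± 9.74 to 9.62 ± 4.46 CPM (-1.81) and Mgst1 from 2169 ± 448 to 1000 ± 287 CPM (-1.15, a call lost with library totals, adjusted p = 0.208). Genes switched on by NRF2 under oxidative stress were split, with 6 of 23 higher and 9 lower (11 and 3 with library totals). Hmox1, haem oxygenase, stood at 1.49, 1.52, 1.38, 1.84 and 1.58 CPM in untreated and at 9.14 to 22.1 CPM (median 15.3) in control-ASO mice (log2 3.25, SE 0.22, adjusted p = 1.74e-07). Cbr1, a carbonyl reductase, had 244, 190, 168, 240 and 278 CPM against 29.4 to 49.4 CPM (median 41.2), a fall of 2.51 on the log2 scale (SE 0.16).

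Iron and haem genes shifted in both directions, with 10 of 18 lower and 4 higher (median log2 -0.74; 4 and 7 with library totals). Alas1, which starts haem synthesis for the cytochromes, had 540, 390, 578, 431 and 351 CPM in untreated and 18.8 to 69.1 CPM (median 52.0) in control-ASO mice. This was a 10.1-fold fall with no overlap (log2 -3.33, SE 0.32, adjusted p = 5.63e-06). The ferritin chains Ftl1 and Fth1 fell from 1453 ± 126 to 554 ± 166 CPM (log2 -1.43) and from 1651 ± 175 to 814 ± 80.6 CPM (-1.05, a call lost with library totals, adjusted p = 0.306). Trf, transferrin, rose from 11580 ± 4955 to 25540 ± 9149 CPM (log2 1.11, with overlap), and Id1, a target of BMP signalling, from 2.94 ± 1.72 to 18.3 ± 6.92 CPM (log2 2.62).

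Solute carriers of the hepatocyte membrane fell in 14 of 28 and rose in 5 (median log2 -0.66; 3 and 10 with library totals). Fatty acid synthesis rose in 4 of 20 and fell in 3, cholesterol synthesis rose in 2 of 22 and fell in 5 (9 and 1 with library totals), gluconeogenesis and glycogen genes rose in 2 of 16 and fell in 4 (9 and 1), and glycolysis rose in 2 of 23 and fell in 5 (17 and 2). Genes of endoplasmic reticulum stress rose in 5 of 24 and fell in 6 (17 and 0 with library totals), and heat shock genes rose in 6 of 18 and fell in 1. Over all genes 23.7% were higher and 22.2% lower, and with library totals 10036 and 687 of 15297. Counts near these shares are not a result about a list. Cytoskeleton and keratin genes rose in 12 of 22 and fell in 4 (median log2 0.50).

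Alb, which encodes albumin, did not pass (log2 -0.38, SE 0.26, adjusted p = 0.258), with 34600 to 78060 CPM in untreated and 35820 to 54770 CPM in control-ASO mice. Of 21 secreted carriers 8 fell and 2 rose (median log2 -0.38; 3 and 8 with library totals). The protease inhibitors Serpina3k and Serpina1b fell from 11640 ± 2157 to 3687 ± 1205 CPM (log2 -1.70) and from 27400 ± 6571 to 9271 ± 2508 CPM (log2 -1.60). Azgp1 and Mug1 fell by 1.06 and 1.02, both calls lost with library totals (adjusted p = 0.198 and 0.421). Mug2, a close relative of Mug1, rose by 1.07 with overlap, a call that ended without untreated mouse 4 (adjusted p = 0.0514) and with no filter (0.0564).

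Complement genes fell in 13 of 26 and rose in 1 (median log2 -0.53; 5 and 7 with library totals). Serping1, the inhibitor of C1, had 2321, 2220, 1564, 2070 and 3469 CPM in untreated and 402 to 680 CPM (median 506) in control-ASO mice (log2 -2.22, SE 0.21, adjusted p = 2.03e-06). C9, the last link of the pore, fell from 1071 ± 266 to 299 ± 111 CPM (-1.89), and C1qb, which comes from macrophages, from 64.1 ± 18.4 to 16.8 ± 5.01 CPM (-1.96). The member that rose, Cfd, a protease best known from fat cells, had 1 count in all untreated mice and 0 to 3.37 CPM in control-ASO mice. Its fitted change was 4.91 (adjusted p = 0.0208), 6.58 without untreated mouse 3 and 4.13 without control-ASO mouse 1, and its call ended without untreated mice 1, 2 or 3 (adjusted p up to 0.074), with no filter (0.0526), with voom (0.305) and with all 21 mice in the fit (0.125).

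Coagulation genes fell in 10 of 26 and rose in 2 (median log2 -0.32; 3 and 14 with library totals). F9, factor IX, fell from 292 ± 33.0 to 101 ± 12.9 CPM, a log2 change of -1.57 (SE 0.12, adjusted p = 4.70e-07), plasminogen, Plg, from 2957 ± 698 to 1153 ± 239 CPM (-1.40), the clot-protecting carboxypeptidase Cpb2 from 674 ± 306 to 229 ± 53.4 CPM (-1.60) and the anticoagulant Proc by 1.09, a call lost with library totals (adjusted p = 0.146). F2, prothrombin, rose by 0.45 (adjusted p = 0.0368), and its call ended without any of untreated mice 1 to 4 or control-ASO mice 1, 2, 4, 5 and 6 (adjusted p up to 0.0833).

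Apolipoproteins and their enzymes fell in 7 of 17 and rose in 3 (median log2 -0.44; 3 and 7 with library totals). Apoe had 33000, 33730, 23070, 31560 and 23390 CPM in untreated and 8777 to 10970 CPM (median 9388) in control-ASO mice (log2 -1.63, SE 0.21). Its neighbours on chromosome 7 differed: Apoc4 fell from 1437 ± 299 to 336 ± 106 CPM (log2 -2.13), and Apoc2, the activator of lipoprotein lipase, rose from 222 ± 21.7 to 663 ± 189 CPM (log2 1.54). Apoc4 and Apoc2 lie side by side, so reads near their border could be assigned to either. Apob, the scaffold of very low density lipoprotein, rose from 37.1 ± 7.08 to 99.6 ± 33.1 CPM (log2 1.38), and Lcat fell by 1.33.

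Transcription factors and nuclear receptors of the hepatocyte fell in 10 of 28 and rose in 4 (median log2 -0.21; 2 and 16 with library totals). Hnf4a, the central regulator of the hepatocyte programme, had 201, 208, 204, 178 and 244 CPM in untreated and 90.9 to 121 CPM (median 102) in control-ASO mice (log2 -1.01, SE 0.12, adjusted p = 1.35e-05), a call lost with library totals (log2 -0.15, adjusted p = 0.363). Cebpa fell from 140 ± 26.7 to 57.2 ± 12.8 CPM (log2 -1.32). Sall1 rose from 6.00 ± 1.28 to 16.5 ± 5.04 CPM (log2 1.42).

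Markers of other cell types could come with a different mix of cells in the pieces, and their part in the results above was not tested. Bile duct cell markers rose in 6 of 12 measured (of 18 listed) and fell in 0 (median log2 1.45), with a summed level of 98.8 to 139 CPM in untreated and 204 to 394 CPM in control-ASO mice. Tspan8, described above, is in this list and its rise enters the sum. Spp1 is counted here and again among the markers of recruited macrophages. Sox9, a factor of duct and progenitor cells, rose from 5.27 ± 1.73 to 35.6 ± 13.2 CPM (log2 2.72, SE 0.29), and Spp1, osteopontin, from 13 ± 5.13 to 50.3 ± 18.2 CPM (log2 1.92). Cldn7, a tight junction protein, had 2 counts in all untreated mice and 0.618 to 5.34 CPM in control-ASO mice (log2 5.10, and 7.52 without untreated mouse 3). The classic duct marker Epcam (named after its values were seen) did not pass, at log2 -0.84.

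Markers of capillary endothelium, which replaces the sieve-like sinusoids in liver tumours, rose in 6 of 9 and fell in 2 (median log2 1.24; summed level 48.1 to 80.0 against 55.5 to 115 CPM). Esm1, a marker of growing vessel tips, had 0.213, 0.234, 0, 0.142 and 0 CPM in untreated and 4.45 to 18.7 CPM (median 10.3) in control-ASO mice (log2 6.26, SE 0.64, adjusted p = 9.07e-06). Each untreated level of Esm1 was under that of 3 counts. The adhesion molecule Vcam1 rose by 1.42 and Cd34 by 1.99, both without overlap, while Ackr1, a receptor of venules, fell by 1.58 and Plvap by 0.66. With library totals Ackr1 lost its call (log2 -0.76) and Plvap stood at 0.19. Sinusoidal markers were split, with 5 of 19 higher and 6 lower (12 and 1 with library totals).

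Kupffer cells, the resident macrophages, had 6 of 13 markers lower and 1 higher (median log2 -0.51; 1 lower and 4 higher with library totals; summed level 410 to 599 against 398 to 567 CPM). Cd163 fell by 1.63, Clec4f by 0.68 and Vsig4 by 0.63, and with library totals Clec4f and Vsig4 stood at 0.18 and 0.23 and Cd163 lost its call; that of Vsig4 was also lost with all 21 mice in the fit (adjusted p = 0.0622). Markers of recruited macrophages rose in 9 of 17 and fell in 2 (median log2 1.15; summed level 166 to 417 against 190 to 526 CPM). Mmp12, an elastase of macrophages, had 2 counts in all untreated mice and 3.21 to 17.6 CPM in control-ASO mice, a ratio of 170 whose counting interval starts at 46.9. Gpnmb, of lipid-laden macrophages, had 0 counts in untreated mice and 0.247 to 4.15 CPM in control-ASO mice, at least 22.7-fold higher against 3 counts over the group. Csf1r, the receptor that macrophages share, fell from 49.3 ± 11.6 to 16.8 ± 5.50 CPM (log2 -1.59), and Ly6c2 by 1.08, a call that ended without untreated mouse 5 or control-ASO mouse 2 (adjusted p = 0.0814 and 0.0518), and with library totals (0.618), no filter (0.0956) or thinning to the lowest total (0.106).

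B and plasma cell markers rose in 5 of 12 and fell in 0 (median log2 1.29; summed level 247 to 365 against 311 to 453 CPM). Igha, the heavy chain of IgA, had 3.09, 1.05, 0.611, 0.992 and 1.71 CPM in untreated and 8.08 to 43.6 CPM (median 17.2) in control-ASO mice (log2 3.79, SE 0.55). Jchain, which links IgA into dimers, rose from 0.410 ± 0.281 to 6.03 ± 2.47 CPM (log2 3.81), Blnk by 2.12 and the light chain Igkc by 0.93, with overlap in Igkc. Markers of T and NK cells were scarce, with 6 of 26 past the filter on low counts, and 2 of the others at 0 counts in all 11 mice; 2 of the 6 rose and 1 fell. Of the markers of other tissues, 2 of 13 pancreas markers passed the filter (0 higher, 1 lower), 3 of 10 gut markers (2 and 0), 4 of 7 mesothelial markers (0 and 1) and 6 of 12 adipocyte and muscle markers (2 and 0). With library totals 0 and 0 of the pancreas and 2 and 0 of the mesothelial markers were called. Adipocyte and muscle markers had a summed level of 1346 to 5366 CPM in untreated and 777 to 4927 CPM in control-ASO mice, most of it from Car3, which hepatocytes also express and which did not pass (mean 4240 and 2385 CPM). Erythroid markers fell in 3 of 6 and rose in 0 (1 and 0 with library totals), with a summed level of 3506 to 8310 against 2090 to 5498 CPM. Whether these markers moved with the results above through the make-up of the pieces was not tested.

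Stellate cell and fibroblast markers fell in 6 of 20 and rose in 3 (median log2 -0.22; 3 and 9 with library totals; summed level 301 to 406 against 328 to 469 CPM). Ngfr fell from 8.05 ± 1.78 to 2.79 ± 0.663 CPM (log2 -1.56), Tcf21 by 2.29 and Lum by 1.24 (a call lost with library totals, adjusted p = 0.17), and Reln rose by 0.87. Matrix genes were split, with 5 of 26 higher and 8 lower (13 and 0 with library totals). Thbs1, thrombospondin, rose from 0.520 ± 0.167 to 6.52 ± 3.30 CPM (log2 3.59, SE 0.41), and the basement membrane chains Col4a2 and Lamc1 fell by 1.40 and 1.03, both calls lost with library totals (adjusted p = 0.0623 and 0.419).

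Chemokines and cytokines rose in 9 of 26 and fell in 2 (median log2 0.38). Il1rn, the antagonist of interleukin 1, had 2.87, 0.935, 1.07, 1.42 and 3.81 CPM in untreated and 34.4 to 109 CPM (median 78.3) in control-ASO mice (log2 5.17, SE 0.44, adjusted p = 4.24e-06). The neutrophil attractant Cxcl1 had 3.51 to 9.99 CPM against 43.1 to 439 CPM (median 61.5), and control-ASO mouse 1 took its change from 3.38 to 4.44. Cxcl2 rose by 3.69, and by 5.83 without untreated mouse 5. Il18 and Il10 fell by 0.77 and 1.29, with Il18 at 0.07 under library totals and the call of Il10 lost without untreated mouse 2 (adjusted p = 0.083), with library totals (0.374) and with voom (0.0615). Neutrophil markers had 1 of 6 measured higher, and interferon-stimulated genes 12 of 34 higher and 5 lower (median log2 0.02).

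Single mice stood apart in genes of inflammation and of the daily clock (named after their values were seen). Acute phase genes, which the liver raises within hours of inflammation, were called in 3 of 21 (all lower; 2 higher and 2 lower with library totals; median log2 -1.17, and 0.06 without untreated mouse 5). In untreated mouse 5 the serum amyloid genes Saa1 and Saa2 stood at 30040 and 45140 CPM, against 123 to 683 and 25.9 to 177 CPM in the other 4. The iron-binding protein Lcn2 stood at 3181 CPM there and at 10.5 to 15.1 CPM in the other untreated mice. Control-ASO mice had 60.8 to 357 CPM of Lcn2, above those 4 mice, and its log2 change was -1.84 (adjusted p = 0.375) with untreated mouse 5 and 3.87 without it. Saa4 fell by 1.12 with overlap, and its call ended with library totals (log2 -0.29, adjusted p = 0.371), with no filter (0.0512) and with all 21 mice in the fit (0.112).

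Dbp, a clock output factor, stood at 12.8 CPM in untreated mouse 5 and at 9.75 and 12.2 CPM in control-ASO mice 1 and 2, against 90.8 to 118 CPM in the other untreated mice. Arntl, which peaks at the opposite time of day, was highest in the same mice of each group (1.58 CPM in untreated mouse 5), and rose by 2.95, or 3.70 without untreated mouse 5. Hours of collection are not in the labels. Without these 3 mice 3139 genes were higher and 3111 lower. The heat shock gene Hspa1a stood at 34.2 CPM in control-ASO mouse 1 and at 0.809 to 1.61 CPM in the other 5, and did not pass (log2 2.88, adjusted p = 0.0875; 0.56 without that mouse).

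**Figure D4:**
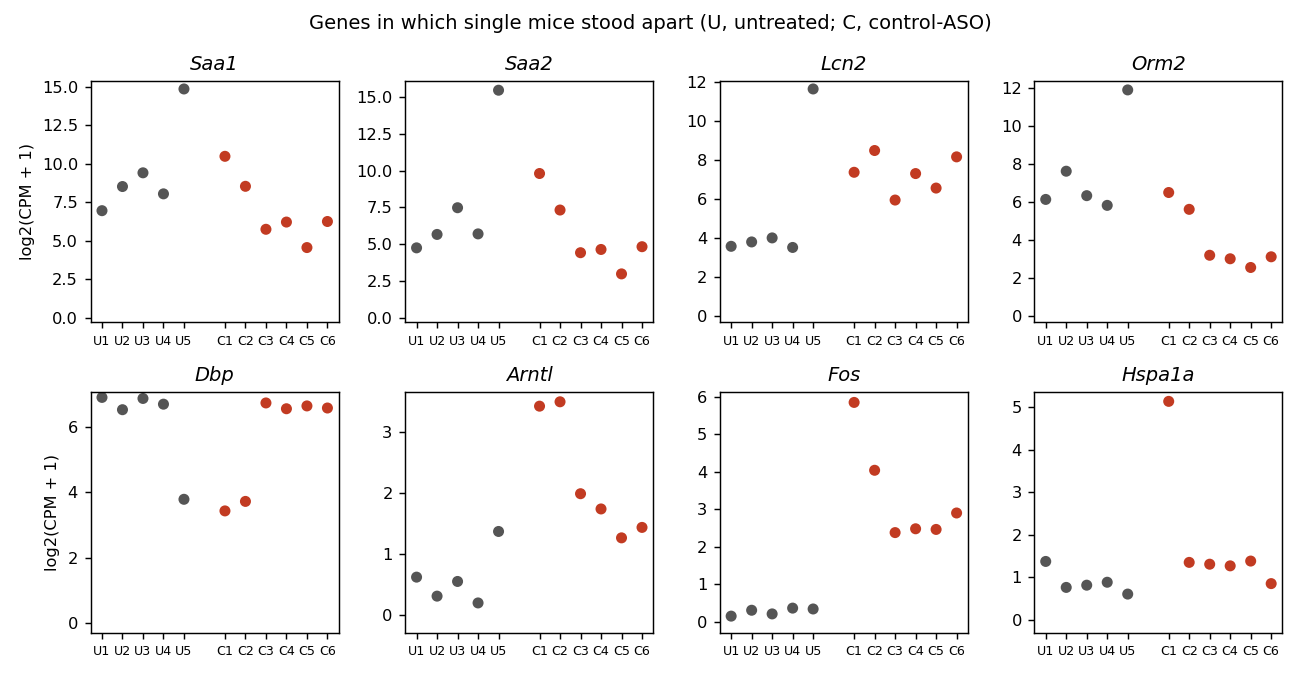
Levels of 8 genes as log2(CPM + 1) in each mouse (U1 to U5 untreated, grey; C1 to C6 control-ASO, red). Untreated mouse 5 was far above its group for Saa1, Saa2, Lcn2 and Orm2, mice U5, C1 and C2 were low for Dbp, and C1 was highest for Fos and Hspa1a.

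The control-ASO mice also differed in how far they lay from the untreated mean, given as the mean log2(CPM + 1) of a list minus the untreated mean. For pericentral genes the 6 mice stood at -0.79, -1.82, -0.56, -1.17, -1.71 and -1.96, and for male-biased genes at -1.10, -2.0, -1.66, -1.83, -2.34 and -2.96. Mice 1 and 3 lay nearest to untreated mice for pericentral genes, and mouse 6 lay farthest in both lists. Oncofetal markers, in contrast, stood at 2.37, 2.89, 2.57, 2.74, 2.78 and 3.25, again with mouse 6 at the far end and mice 1 and 3 at the near end. The untreated mice lay between -0.48 and 0.65 in these lists, except untreated mouse 1 at -0.75 for male-biased genes. Untreated mouse 1 was also at 0.84 for female-biased genes, where the other 4 lay between -0.31 and -0.01.

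**Figure D5:**
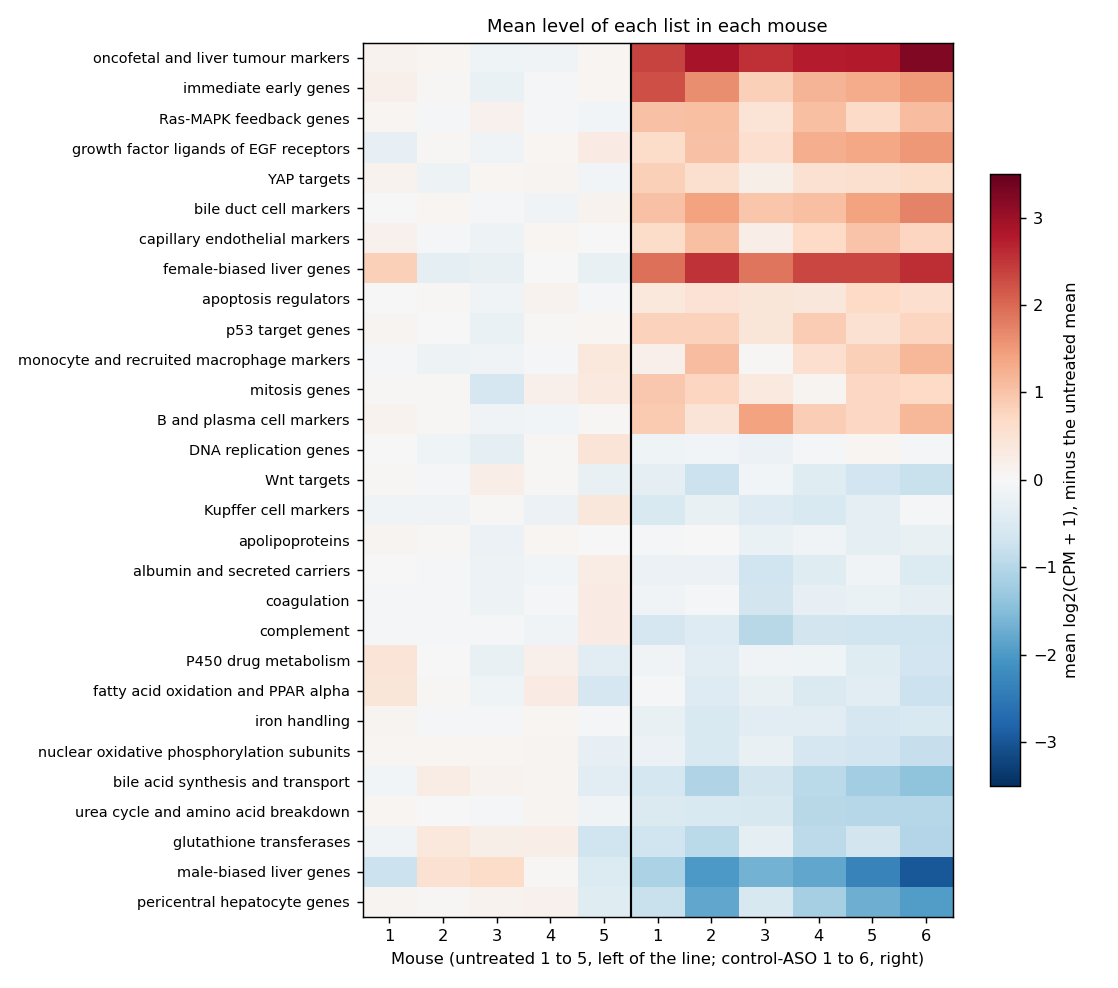
Mean log2(CPM + 1) of each gene list in each mouse, minus the mean of the untreated mice (colour scale), with untreated mice left and control-ASO mice right of the line. Oncofetal and female-biased lists are high and male-biased and pericentral lists low in the 6 control-ASO mice, with the largest departures in mouse 6.

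Of 285 lincRNA genes tested 30.5% were higher and 14.7% lower, against 23.7 and 22.2% of all genes. Malat1, a nuclear noncoding RNA (named, like Neat1, after its values were seen), had 101, 70.1, 134, 49.3 and 93.0 CPM in untreated and 715 to 1098 CPM (median 817) in control-ASO mice (log2 3.21, SE 0.24, adjusted p = 3.53e-07). Neat1, the scaffold of paraspeckles and its neighbour on chromosome 19, rose from 77.1 ± 34.6 to 648 ± 220 CPM (log2 3.03). At day 133 the DEN livers had 389 to 478 CPM of Malat1 and 279 to 392 CPM of Neat1, above each untreated mouse. As shares of all counts, lincRNA genes held 0.259 to 0.415% in untreated and 1.52 to 3.13% in control-ASO mice. The rows of small nucleolar RNA genes held 0.447 to 0.669% and 1.12 to 1.52%. Reads at the row of Mir675, which lies within H19, were 0 in untreated mice and 0.561 to 32.7 CPM in control-ASO mice. With counts pooled over mice they were at least 101-fold higher against 3 counts over the untreated group, a bound that leaves out the spread between mice. Mouse 6 held the 32.7 CPM, against 0.561 to 6 CPM in the other control-ASO mice. The fitted change did not pass (log2 9.18, adjusted p = 0.0625). Without control-ASO mouse 6 it was 7.39 (adjusted p = 0.00407).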

How the data were processed

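Livers of 21 mice were sequenced with a 3' end protocol (QuantSeq), and 11 of the mice enter the comparison, by the group their labels give. The authors deposited raw counts per gene, and the submitters' processing notes name HISAT2 2.1.0, DESeq and mm10. The counting program, its handling of reads that match several places and the annotation are not given in the sources used here. A deposited table of the same counts divided by 1 factor per mouse and rounded was not used. All 55413 identifiers of the count table matched GENCODE vM21, which gave names and positions.

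From the counts, genes were kept by filterByExpr over the 4 groups (15297 genes). The 11 mice were scaled with TMM and tested with edgeR 4.0.16 in R 4.3.3 (robust quasi-likelihood test, Benjamini-Hochberg adjustment over all genes kept, adjusted p of 0.05, with a 2-fold change for the stricter call). SE is the log2 change over the root of F. Replicate numbers do not pair the mice, so the fit has no block. A fold against a group with 0 counts was set against 3 counts over the group, with counts pooled over the mice of each group. Ratios resting on 1 to 3 counts carry 95% exact intervals, which cover counting error only. Both leave out the spread between mice. In single mice 3 counts stand for 0.319 to 0.458 CPM in untreated and 0.210 to 0.370 CPM in control-ASO mice. The fit was tested on simulated data in which few genes changed and the groups did not differ in composition. That test therefore does not bear on the choice of scaling.

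Genes named are the 4 markers, the 12 largest rises and 12 largest falls among called genes whose mean log2 CPM is 2 or more, for each list the 4 members with the smallest adjusted p and up to 3 called against its majority, and Smyd3, Alb and Glul as checks; not all of these are described. Genes added after their values were seen are marked so. The comparison, its markers, the gene lists and the alternatives were chosen with earlier results of these data known. Alternatives were the scaling, the filter, DESeq2 1.42.0, limma 3.58.1 (voom), all 21 mice in the fit, thinning to the lowest library total, a replicate block, each mouse left out, and, chosen after seeing the data, leaving out 3 mice with shifted clock genes. Near-identical genes (Mup, Cyp4a12, Cyp3a41, Cyp2a, Saa and Hamp copies, Gstp, Serpina1) may share reads. Promoter windows came from RefSeq (GRCm38.p6), with an entry for 10177 of the genes tested.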

Additional observations from a re-analysis of the deposited data

Results flagged for a closer look

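In 52 of 410 groups of mice (12.7%), 1 mouse lay far from the rest of its group past Dixon's 95% critical value for the gap over the range. That limit gives about 1 in 20 only for normally distributed values. The CPM were not transformed, so the 12.7% cannot be set against it. Several genes are neighbours or near copies. In Nctc1, Sult2a2, Cfd, Nrg1, Tceal5 and Cldn7 the flagged untreated mouse was the only one of its group with a count. All values are levels in CPM.

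Untreated mouse 5 was far above its group in the acute phase genes Saa1 (30036), Saa2 (45144), Saa4 (651.9), Lcn2 (3181) and Orm2 (3830) and their neighbour Saal1 (16555). It was also highest in Tph1 (568.2), Cpb2 (1209), Mcm7 (15.65), Hbegf (2.367), Cxcl2 (0.7889) and Arntl (1.578). It was lowest in Dbp (12.75), Lifr (126.5), Rhbg (8.547) and Ugt2b38 (2.104), and was the single untreated mouse with a count of Nctc1 and Sult2a2 (0.1315 each).

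Control-ASO mouse 1 was highest in the chemokines Cxcl1 (438.6) and Cxcl2 (4.77), in Fos (56.96), Hspa1a (34.16) and Ccn1 (41.46), and in Saa1 (1438), Saa2 (891), Saa4 (343.7), Saal1 (633.6) and Tph1 (14.1). The same mouse was highest in Mup17 (1471), Mup11 (3748) and Ndufa8 (85.31).

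Untreated mouse 3 was highest in Mup17 (41435), Mup18 (17487) and Mup11 (48611), and was the single untreated mouse with counts of Tceal5 and Cldn7 (0.3055 each) and Cfd (0.1528). Untreated mouse 1 was highest in H19 (2.873), Cyp2a4 (15.54), Cyp3a41b (2.66) and Hamp2 (748.8), and untreated mouse 4 in Id1 (5.951) and Nrg1 (0.2834).

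Among the other control-ASO mice, mouse 3 was highest in Nctc1 (57.18), Cyp4a12b (50.02) and Hamp2 (59.03), mouse 4 in Tyms (134.5) and mouse 5 in Dlk1 (30.52). Mouse 6 was highest in Gpc3 (147.2), Mir675 (32.7) and Plvap (42.01) and lowest in Azgp1 (227.1).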

How the results depend on the processing

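The scaling moved the counts most. With library totals 10036 genes were higher and 687 lower (at least 2-fold, 6572 and 301), and 4307 of the 7018 calls stayed in their direction; 7 of 205 genes named changed sign, Perp (0.23), Pcna (0.37), Mcm7 (0.19), Plvap (0.19), Vsig4 (0.23), Clec4f (0.18) and Il18 (0.07), 29 lost and 3 gained their call. Upper quartile scaling gave 4119 and 2929 and ended the calls of Pcna, Mcm7 and Ccne2. DESeq2's size factors gave 3655 and 3327, its Wald test 3782 and 3428, voom 3414 and 3414, no filter 3785 and 2996, the filter over 2 groups 3404 and 3287, all 21 mice 3417 and 3271, and thinning to the lowest library total 3343 and 3095. With single mice left out, 3139 to 3538 genes were higher and 3069 to 3392 lower (at least 2-fold, 1735 to 1927 and 1349 to 1496). Lcn2 ran from -2.16 to 3.87, the latter without untreated mouse 5, and stood at 3.56 without the 3 mice of shifted clock genes, a fit that ended 14 calls (Gldn, Dlk1, Nctc1, Mup17, Mup18, Hamp2, Pcna, Mcm7, Cox7c, Sult2a2, Mug2, Plvap, Clec4f and Ly6c2). Of 35 lists whose median lay at least 0.5 from that of all genes, 1, the acute phase list, changed sides. A change of scaling alone shifts all genes nearly alike, so it could hardly move a list against that median. Causes were not tested. Low counts limit the folds of genes that were nearly silent in untreated mice.

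Same-numbered mice of the 2 groups did not deviate together (correlations -0.0778, -0.123, 0.0539, -0.00232 and 0.0129), so the numbers do not pair them; with a replicate block 2928 genes were higher and 2771 lower (at least 2-fold, 1676 and 1285), and 15 of the genes named lost their call, among them Orm2, Hamp2, Egf, Mup17, Mup18, Bmf and F2.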
